A study of Homo sapiens with 15 samples.

Results

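Gene expression in A549 cells after 48 h in 10 nM geldanamycin was set against cells kept for 24 h in vehicle. These groups differ in drug and in time, and apparently in array run, which the labels do not name. The comparison holds 6 of the 15 arrays of the study, 3 in each group, chosen by their titles. A549 is an established human lung carcinoma line. Cells attached for 24 h and were then given geldanamycin or the solvent DMSO at 0.4%, and total RNA was hybridised to Affymetrix HG-U133 Plus 2.0 arrays. The other groups, also of 3 arrays each, were vehicle at 48 h and geldanamycin at 40 nM for 24 h or 48 h. The submitters call 10 nM the IC20 and 40 nM the IC50 of the drug in these cells, and every group carried the solvent. The question was which changes against the 24 h vehicle were also present against the 48 h vehicle.

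Geldanamycin occupies the ATP pocket of HSP90, a chaperone that folds and stabilises kinases, steroid receptors and other client proteins. Blocking HSP90 releases the transcription factor HSF1, which raises chaperone genes through heat shock elements in their promoters, and clients that are not folded are degraded by the proteasome. Interferon-stimulated genes are switched on through an interferon-stimulated response element in their promoters, and inflammatory cytokine genes by NF-kB dimers at their own sites.

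All values are log2 expression values after quantile normalization of the 15 arrays together, and a gene is read from its brightest probe set with a single symbol, which gave 19775 genes. A change was called at an adjusted p below 0.05 in limma's moderated test, and a change that was called in the same direction against both vehicles is said to remain. Errors of log2 changes (±) are standard errors of that fit, each from 3 arrays a group. Whether the arrays of a group stem from independent cultures is not said in the labels, and p-values then describe only how far these arrays scatter, possibly for technical reasons. Both comparisons use the same 10 nM arrays, so they are not independent of each other. Against the 24 h vehicle, drug, time and any array run cannot be told apart. The 10 nM arrays also differ from the 48 h vehicle in their control probe sets, as given below. In both comparisons, and so in the changes that remain, the drug cannot be told apart from such sample or labelling differences.

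The 10 nM arrays stood apart from all others in their controls. The 24 poly-A spike probe sets, which read bacterial transcripts added to the RNA before labelling, averaged 3.24 ± 0.04 (SD, n = 3 arrays) at 10 nM, 6.65 ± 0.13 in the 24 h vehicle and 5.76 ± 0.06 in the 48 h vehicle. The 3' minus 5' difference of the ACTB control probe sets was 2.69 ± 0.03 at 10 nM, against 0.14 ± 0.02 and 0.35 ± 0.06 in the vehicles at 24 h and 48 h. That of GAPDH was 0.12, 0.14 and 0.11 in the same order, and the 18 hybridization controls averaged 10.5, 10.5 and 10.3. In 40 nM at 48 h, the poly-A spikes averaged 5.63 and the ACTB difference was 0.42. The part of these differences in the gene results, against either vehicle, was not tested. Of 8 lung epithelial markers, 7 were higher than the 24 h vehicle and 1 lower, where 22.8% and 21.8% of all genes were called. Their mean level was 9.62 to 9.73 at 10 nM and 8.97 to 9.04 in the 24 h vehicle. The lower one, the keratin KRT7, read 12.95, 12.95 and 12.90 at 10 nM and 13.37, 13.33 and 13.41 in the 24 h vehicle. The mean level of 9 leukocyte markers was 4.34 to 4.41 at 10 nM and 4.06 to 4.19 in the 24 h vehicle, below the value of 5.1 under which the dimmest 40% of genes lay. The means of 8 endothelial markers were 3.73 to 3.97 and 3.89 to 3.97, and those of 9 fibroblast markers 4.51 to 4.62 and 4.58 to 4.62. The 10 alveolar type 2 markers averaged 4.89 to 5.02 and 4.65 to 4.94.

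**Figure D1:**
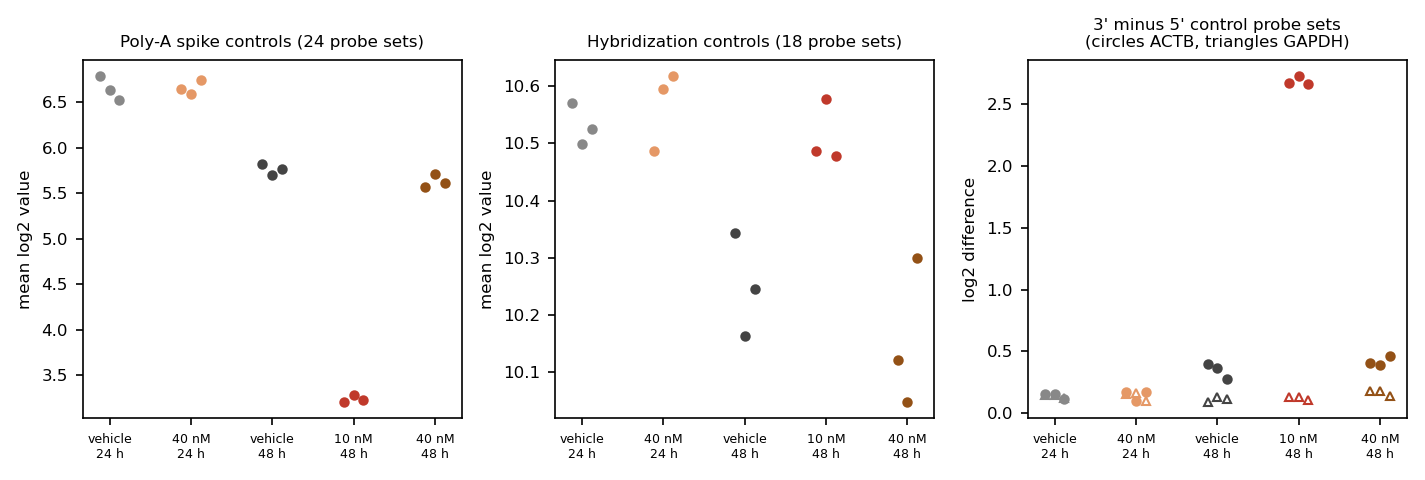
Control probe sets on each of the 15 arrays, as points by group (log2 scale). The left panel gives the mean of 24 poly-A spike probe sets, the middle panel the mean of 18 hybridization controls and the right panel the 3' minus 5' difference of ACTB (circles) and GAPDH (triangles); the 10 nM arrays are lowest for the poly-A spikes and highest for the ACTB difference.

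At genes that separated the 24 h arrays from the other 48 h arrays, the 10 nM arrays lay more often with the 24 h arrays than with the 48 h arrays. At these genes, time and any array run cannot be told apart. These genes were picked after the values had been seen but without the 10 nM arrays: in both other 48 h groups they were at least 2-fold from both 24 h groups, with no overlap of arrays, and Y-linked genes and XIST were left out. Of 152 such genes that were higher at 48 h, all 3 of the 10 nM arrays lay on the 24 h side of the midpoint for 92 and on the 48 h side for 54. Of 85 that were lower at 48 h, the numbers were 46 and 33. The cadherin gene CDH6 had a mean of 4.24 at 10 nM, beside 4.13 in the 24 h vehicle, 8.49 in the 48 h vehicle and 8.13 in 40 nM at 48 h. The matrix proteoglycan LUM stood at 2.81, 2.69, 6.204 and 5.34 in the same order, and the matrix glycoprotein SPARC at 10.63, 11.12, 6.61 and 7.19. KRT19, a keratin, stood at 5.69, 5.13, 8.18 and 8.81. These named genes had means on the 24 h side, but at 87 of all 237 genes every 10 nM array lay on the 48 h side. The chemokine gene CCL20 lay on the 48 h side, at 8.87, 4.35, 7.46 and 10.89. In the deposited scaling the pattern turned: 482 genes met the rule, and for 151 of them (31.3%) all 10 nM arrays lay on the 24 h side, compared with 138 of 237 (58.2%) here, 57.6% after cyclic loess and 55.4% with array medians subtracted.

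**Figure D2:**
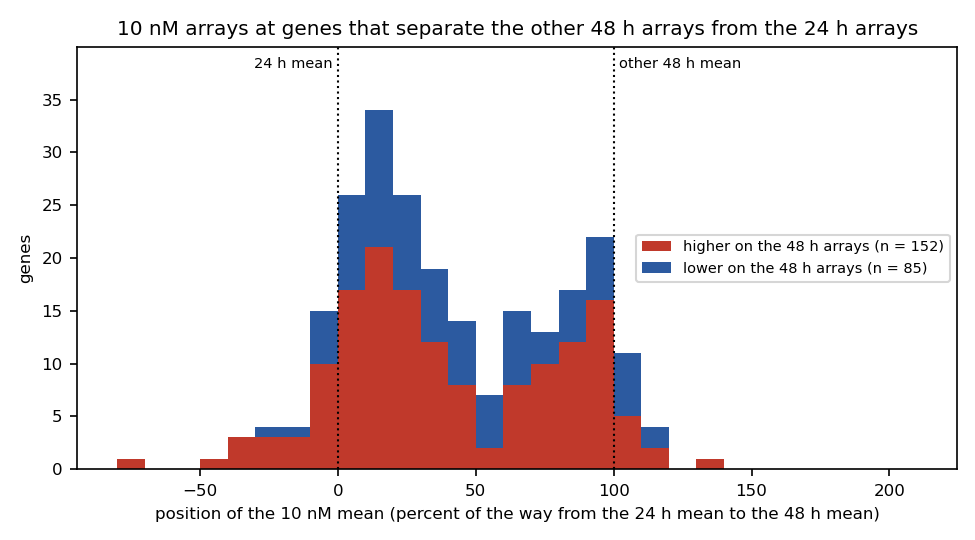
Histogram of the position of the 10 nM mean at 237 genes that separate the other 48 h arrays from the 24 h arrays, where 0 is the mean of the 24 h arrays and 100 that of the other 48 h arrays (percent; bars stack 152 genes higher and 85 lower at 48 h). The largest group of genes lies just above 0 and a smaller one just below 100.

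Against the 24 h vehicle, 8832 of 19775 genes (44.7%) were called, 4518 higher (22.8%) and 4314 lower (21.8%). The split depended on the scaling. With the values as deposited, whose median over all genes was 0.37 higher at 10 nM, 94.5% of the calls were higher. With array medians subtracted, where the median gene was at -0.13, 28.3% were higher, compared with 51.2% here. Vehicle at 48 h differed from vehicle at 24 h at 8451 genes (42.7%), and 10 nM differed from the 48 h vehicle at 6106 (30.9%). Called against their own vehicle were 35.7% of genes for 40 nM at 24 h and 26.3% at 48 h, and between 10 nM and 40 nM at 48 h 31%. The median size of a log2 difference was 0.198 against the 24 h vehicle, 0.186 between the vehicles and 0.129 against the 48 h vehicle, with a median standard error of 0.087.

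In all, 3455 genes (17.5%) remained, 1972 higher (9.97%) and 1483 lower (7.5%). These are 43.6% of the rises and 34.4% of the falls called against the 24 h vehicle, and 59.8% and 52.8% of those called against the 48 h vehicle. Among changes of at least 2-fold against the 24 h vehicle, 203 of 307 rises (66.1%) and 80 of 137 falls (58.4%) remained. At least 2-fold against both vehicles were 99 rises and 36 falls. The 10 nM arrays overlapped none of the 6 vehicle arrays for 1944 of the remaining rises and 1447 of the remaining falls, together 17.1% of all genes. A further 697 genes (3.52%) were called in opposite directions, 425 of them higher than the 24 h vehicle and lower than the 48 h vehicle. Another 2121 rises and 2559 falls were called against the 24 h vehicle and not against the 48 h vehicle. For 1632 and 1935 of them the vehicles themselves differed in that direction, beside 20.6% and 22.2% of all genes. The difference from the 24 h vehicle is the sum of that from the 48 h vehicle and that between the vehicles. These counts therefore follow largely from the choice of the genes.

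**Figure D3:**
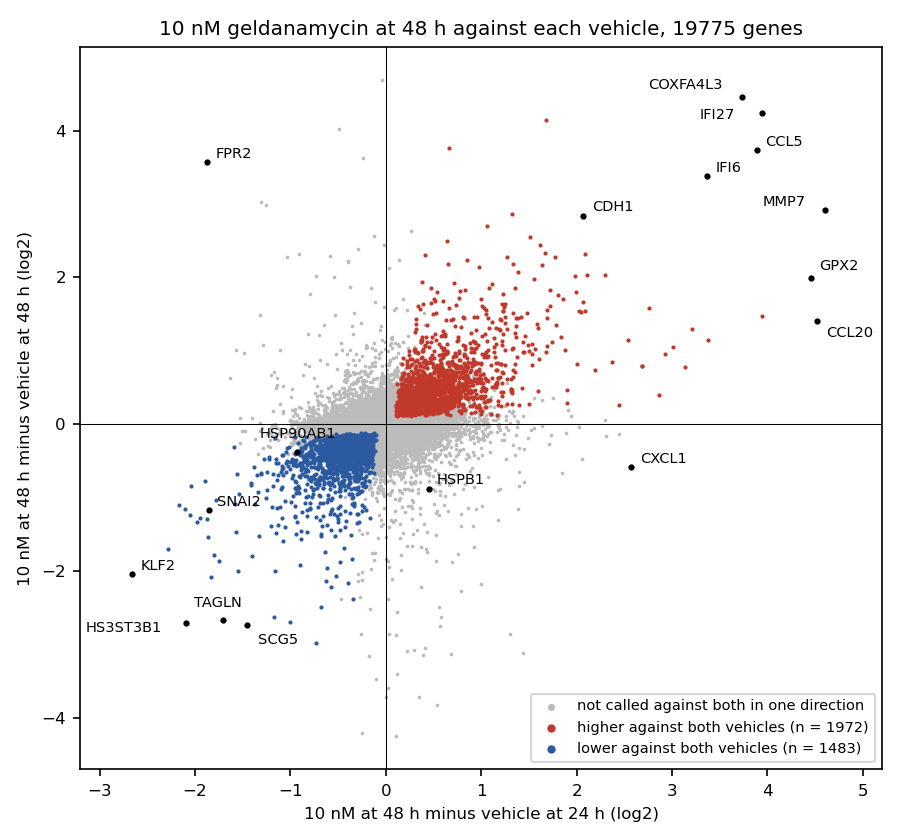
Each point is 1 of 19775 genes, with the log2 difference of 10 nM at 48 h from the 24 h vehicle on the horizontal axis and from the 48 h vehicle on the vertical axis. Red points (n = 1972) are higher and blue points (n = 1483) lower against both vehicles; CXCL1, HSPB1 and FPR2 lie where the signs differ.

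The 12 leading remaining rises held the interferon-stimulated genes IFI27 and IFI6 and the cytokine genes CCL5 and LTB beside genes of other kinds. The leading rises and falls were picked among genes whose 10 nM arrays overlapped no vehicle array. Their lack of overlap therefore follows from the choice. IFI27, an interferon-stimulated gene of mitochondria, read 9.13, 9.003 and 8.66 on the 10 nM arrays, 5.17, 4.75 and 5.03 in the 24 h vehicle and 5.01, 4.65 and 4.41 in the 48 h vehicle. The 10 nM arrays lay far above all 6 vehicle arrays. The difference was 3.95 ± 0.16, or 15.4-fold, against the 24 h vehicle (limma adjusted p = 1.2e-09) and 4.24 ± 0.16 against the 48 h vehicle (limma adjusted p = 4.1e-10). At 40 nM, IFI27 read 4.80, 4.89 and 5.12 at 24 h and 5.52, 5.66 and 5.82 at 48 h, so that 10 nM was also above both 40 nM groups, by 3.27 on the log2 scale at 48 h (limma adjusted p = 7.8e-09). IFI6, an interferon-stimulated gene that limits apoptosis, read 10.35, 10.34 and 10.37 at 10 nM, 7.06, 7.02 and 6.89 in the 24 h vehicle and 6.95, 7.01 and 6.96 in the 48 h vehicle. Its rise was 3.36 ± 0.06 and 3.38 ± 0.06 against the vehicles at 24 h and 48 h, and 2.41 over 40 nM at 48 h.

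The chemokine CCL5, which draws T cells and monocytes, read 8.82, 8.85 and 8.93 at 10 nM, 4.78, 4.997 and 5.16 in the 24 h vehicle and 5.25, 5.09 and 5.05 in the 48 h vehicle. It rose by 3.89 ± 0.11 (14.8-fold) and 3.74 ± 0.11 (13.3-fold), with limma adjusted p of 2.6e-11 and 2.7e-11, and its other 2 probe sets also rose. At 40 nM it was near the vehicle after 24 h (difference 0.01) and 3.02 above its vehicle after 48 h. COXFA4L3, a relative of a cytochrome c oxidase subunit, read 10.53, 10.49 and 10.53 at 10 nM, 6.95, 6.63 and 6.77 in the 24 h vehicle and 6.09, 5.98 and 6.12 in the 48 h vehicle, with no overlap. Its rise was 3.73 ± 0.08 and 4.45 ± 0.08.

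For the matrix metalloproteinase MMP7 and the glutathione peroxidase GPX2, the choice of vehicle set the size of the rise. MMP7 read 9.86, 9.80 and 9.81 at 10 nM, 5.602, 5.003 and 5.06 in the 24 h vehicle and 7.06, 6.80 and 6.85 in the 48 h vehicle, which is 24.3-fold and 7.57-fold. GPX2 read 10.97, 10.9996 and 11.03 at 10 nM, 6.49, 6.68 and 6.48 in the 24 h vehicle and 9.08, 8.97 and 8.97 in the 48 h vehicle, which is 21.9-fold and 3.98-fold. The vehicle arrays at the 2 times did not overlap for either gene, and the 10 nM arrays were above both sets. CDH1, which encodes the adhesion protein E-cadherin, went the other way: it read 9.64, 9.68 and 9.64 at 10 nM, 7.51, 7.60 and 7.63 in the 24 h vehicle and 6.82, 6.84 and 6.77 in the 48 h vehicle, a rise of 4.2-fold and 7.17-fold. Its other probe set was not called against the 24 h vehicle (log2 difference -0.28).

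The other leading rises were between 1.80 and 2.32 on the log2 scale against both vehicles. They were LTB, a membrane cytokine of the tumour necrosis factor family (2.09 ± 0.16 and 2.32 ± 0.16), the membrane protein PDZK1IP1 (2.30 ± 0.09 and 2.03 ± 0.09) and EHF, an ETS transcription factor of epithelia (2.11 ± 0.07 and 2.03 ± 0.07). They also included the protease inhibitor SERPINA3 (1.98 ± 0.08 and 2.01 ± 0.08) and the water and glycerol channel AQP3 (1.99 ± 0.10 and 1.80 ± 0.10). Other probe sets of LTB and AQP3 were not called against the 24 h vehicle, with log2 differences of 0.06 for LTB and -0.10 and 0.19 for AQP3. For EHF, 4 of 5 others were called higher. EHF was 2.48 above its vehicle in 40 nM at 24 h and 2.01 in 40 nM at 48 h, and 10 nM and 40 nM at 48 h differed by 0.02 (limma adjusted p = 0.91).

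**Figure D4:**
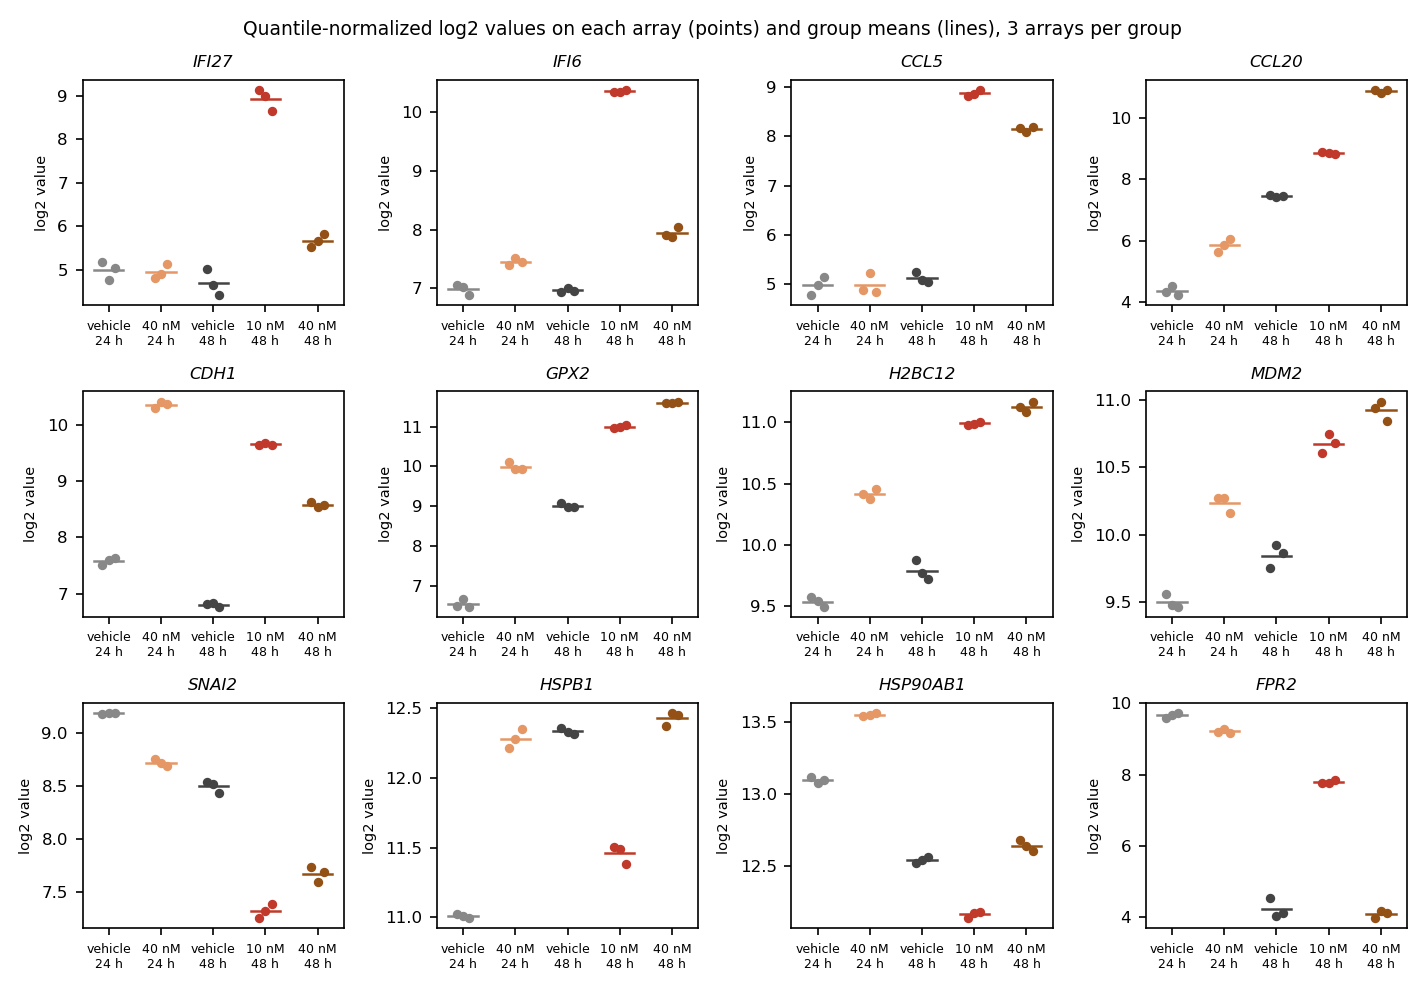
Quantile-normalized log2 values of 12 genes on each of the 15 arrays (points) with group means (lines), 3 arrays per group; the vertical scale differs between panels. IFI27 and IFI6 are highest at 10 nM, CCL20 and GPX2 at 40 nM for 48 h, and the vehicles at 24 h and 48 h lie on opposite sides of the 10 nM arrays for HSPB1 and FPR2.

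The largest remaining falls included KLF2, a transcription factor of quiescent endothelium and T cells. It read 6.15, 6.22 and 5.93 at 10 nM, 8.75, 8.80 and 8.71 in the 24 h vehicle and 8.11, 8.01 and 8.29 in the 48 h vehicle, a fall of 6.3-fold and 4.1-fold (log2 -2.66 ± 0.14 and -2.04 ± 0.14). No array overlapped. Its other probe set was also lower against the 24 h vehicle (-0.71), but stood at 0.030 against the 48 h vehicle. FOS, an immediate early gene and AP-1 subunit, read 5.55, 5.45 and 5.27 at 10 nM, 7.31, 7.23 and 7.13 in the 24 h vehicle and 7.26, 7.11 and 7.24 in the 48 h vehicle. The vehicles overlapped each other and the 10 nM arrays were below both (-1.80 ± 0.10 and -1.78 ± 0.10). FOS was also lower in 40 nM, with log2 differences from vehicle of -1.85 at 24 h and -2.34 at 48 h.

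Genes of the actin cytoskeleton, the matrix and the cell surface were also among the leading falls. TAGLN, an actin-binding protein of smooth muscle, read 7.16, 7.28 and 7.11 at 10 nM, 8.90, 8.87 and 8.88 in the 24 h vehicle and 9.91, 9.82 and 9.81 in the 48 h vehicle (-1.70 ± 0.06 and -2.66 ± 0.06). Of its other 2 probe sets, 1 was lower (-1.61) and 1 higher (0.42) against the 24 h vehicle. NT5E, the ectonucleotidase that makes adenosine, read 7.46, 7.42 and 7.32 at 10 nM, 9.36, 9.31 and 9.11 in the 24 h vehicle and 8.93, 8.90 and 8.97 in the 48 h vehicle (-1.86 ± 0.08 and -1.53 ± 0.08), and its 3 other probe sets fell too. The 10 nM arrays lay below every vehicle array for both genes. EFEMP1, which encodes the matrix protein fibulin-3, changed by -1.55 ± 0.05 and -2.002 ± 0.05.

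The remaining leading falls were HS3ST3B1, a heparan sulfate sulfotransferase (-2.09 ± 0.19 and -2.71 ± 0.19), the neutral amino acid transporter SLC6A15 (-1.83 ± 0.11 and -2.08 ± 0.11) and RAB3B, a GTPase of regulated secretion (-1.75 ± 0.07 and -1.86 ± 0.07). They further included KANK4 (-2.29 ± 0.15 and -1.69 ± 0.15), the secretory chaperone SCG5 (-1.45 ± 0.20 and -2.74 ± 0.20) and OXCT1, which starts the use of ketone bodies (-1.40 ± 0.08 and -1.79 ± 0.08). The actin pseudogene ACTBP9 (-1.57 ± 0.20 and -1.46 ± 0.20) is uncertain, because its probes may share sequence with ACTB. ACTB itself read 13.84, 13.80 and 13.78 at 10 nM and 14.18, 14.21 and 14.11 in the 24 h vehicle (-0.36 ± 0.04), beside the ACTB 3' minus 5' difference given above. The other 2 probe sets of HS3ST3B1 were not called, at 0.01 and 0.07.

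Of the 25 measured interferon-stimulated genes, 21 were higher than the 24 h vehicle and none lower (limma, and none at an unadjusted p below 0.05), with a median log2 difference of 0.96 beside -0.0034 over all genes. Of these, 19 remained, against 9.97% of all genes, and none was called in opposite directions. Over all genes, 22.8% were called higher and 21.8% lower than the 24 h vehicle. In bulk RNA, fewer cells with a transcript and less of it per cell cannot be told apart. Among the sensors of viral RNA, IFIH1 rose by 1.37 and 1.45 and RIGI by 0.48 and 0.94 against the vehicles at 24 h and 48 h. Of the transcription factors, IRF9 rose by 1.04 and 0.63, IRF7 by 0.64 and 0.75 and IRF1 by 0.47 and 0.65. The effectors IFIT3 (2.02 and 1.54), BST2 (1.72 and 1.83), MX1 (1.69 and 1.07), IFIT2 (1.68 and 0.98) and IFIT1 (1.48 and 1.52) rose more than these against the 24 h vehicle. Against the 48 h vehicle, MX1 and IFIT2 rose less than IFIH1. ISG15, the ubiquitin-like modifier, rose by 0.91 and 1.14.

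OAS2 (0.03 and 0.18), RSAD2 (0.06 and 0.19) and MX2 (0.31 and 0.59) did not pass against either vehicle, IFIT5 (0.08 and 0.28) passed against the 48 h vehicle alone, and SAMD9 (0.47 and 0.08) and XAF1 (0.67 and 0.25) against the 24 h vehicle alone. The vehicles differed from each other with a median of -0.08 over the list, 7 members higher and 5 lower at 48 h, where 20.6% and 22.2% of all genes were called. At 40 nM the median against vehicle was 0.47 at 24 h and 0.70 at 48 h. Between 10 nM and 40 nM at 48 h, 9 members were higher and 2 lower at 10 nM (background 17.1% and 13.9%), with a median of 0.17. All 19 remaining members also remained with values as deposited, with array medians subtracted and after cyclic loess.

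The promoters of interferon-stimulated genes are shown because IFI27 and IFI6 were among the leading rises. RefSeq windows (GRCh38.p14) of 250 bases upstream of the start were available for 21 of the 25 genes, and the core of the interferon-stimulated response element, GAAA and GAAA with any 2 bases between them, on either strand, was found in 13 of them (61.9%), compared with 839 of 27305 windows of all genes (3.07%). Among the 17 remaining members with a window, 11 held it. In the sequences below, read 5′ to 3′ along the gene, capitals mark the matches, which may overlap. IFI27 lies at chr14:94110486-94110735 (plus strand), IFI6 at chr1:27672193-27672442 (minus strand), BST2 at chr19:17405631-17405880 (minus strand) and IFIT1 at chr10:89392373-89392622 (plus strand), and each window ends just before the start of its gene.
IFI27: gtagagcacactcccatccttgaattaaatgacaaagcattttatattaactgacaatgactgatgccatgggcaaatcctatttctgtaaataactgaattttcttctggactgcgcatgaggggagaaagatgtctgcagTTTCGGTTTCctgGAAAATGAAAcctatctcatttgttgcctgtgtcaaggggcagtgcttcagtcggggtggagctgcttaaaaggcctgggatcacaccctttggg
IFI6: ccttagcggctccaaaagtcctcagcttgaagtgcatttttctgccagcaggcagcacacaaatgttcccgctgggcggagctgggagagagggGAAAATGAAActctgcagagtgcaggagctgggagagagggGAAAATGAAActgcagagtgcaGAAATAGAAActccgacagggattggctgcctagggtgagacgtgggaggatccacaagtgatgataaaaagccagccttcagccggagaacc
BST2: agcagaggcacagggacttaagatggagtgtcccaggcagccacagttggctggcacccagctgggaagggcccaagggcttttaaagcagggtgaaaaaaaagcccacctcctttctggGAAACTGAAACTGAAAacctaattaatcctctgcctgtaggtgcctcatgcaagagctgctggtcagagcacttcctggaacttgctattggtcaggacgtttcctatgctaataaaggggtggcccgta
IFIT1: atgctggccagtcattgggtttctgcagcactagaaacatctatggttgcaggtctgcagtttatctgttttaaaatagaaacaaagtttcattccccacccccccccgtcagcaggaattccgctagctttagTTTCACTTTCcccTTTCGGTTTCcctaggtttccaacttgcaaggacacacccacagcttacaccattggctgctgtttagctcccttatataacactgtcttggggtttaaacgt
IFI6 held 3 matches in its window and the other genes shown held 2 each. A match describes the letters of the window and not a bound site.

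Of 23 NF-kB and inflammatory genes, 21 were higher than the 24 h vehicle and 1 was lower, with a median of 1.36. Over all genes, 22.8% were higher and 21.8% lower. In the list, 17 remained, all higher (9.97% of all genes). CCL20, a chemokine of dendritic cells and lymphocytes, read 8.90, 8.87 and 8.84 at 10 nM, 4.33, 4.505 and 4.21 in the 24 h vehicle and 7.50, 7.43 and 7.46 in the 48 h vehicle. That is 23.0-fold against the 24 h vehicle and 2.66-fold against the 48 h vehicle, without overlap. The prostaglandin synthase PTGS2 read 9.19, 9.29 and 9.23 at 10 nM, 5.72, 5.03 and 5.11 in the 24 h vehicle and 7.81, 7.71 and 7.75 in the 48 h vehicle (3.95 ± 0.13 and 1.48 ± 0.13). At 40 nM for 48 h both genes were higher still, with log2 differences of 10 nM from 40 nM of -2.02 for CCL20 and -0.99 for PTGS2.

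Other chemokines changed by 3.38 and 1.15 (CCL2), 2.87 and 0.40 (CXCL3) and 2.01 and 0.83 (CXCL2) against the vehicles at 24 h and 48 h, although CXCL1, CXCL2 and CXCL3 are close in sequence and may share signal. The inhibitors of the pathway TNFAIP3 (1.36 and 1.86) and NFKBIA (0.99 and 0.82) rose, as did the subunits NFKB2 (0.75 and 0.47) and RELB (0.35 and 0.65), and the subunit NFKB1 stood at -0.01 and -0.14. The adhesion molecules VCAM1 (1.68 and 4.15) and ICAM1 (0.85 and 0.90) and the cytokine IL6 (0.38 and 0.92) remained higher. The vehicles themselves differed at this list, with 13 members higher and 6 lower at 48 h (20.6% and 22.2% of all genes) and a median of 0.27. At 40 nM for 48 h, all 23 were higher than vehicle (12.2% of all genes), with a median of 1.80. Lower at 10 nM than at 40 nM were 17 of 23 (13.9% of all genes). With values as deposited, array medians subtracted and cyclic loess, 16 of the 17 remained in every scaling.

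Several cytokine genes of the list did not remain. CXCL1 read 10.97, 11.02 and 10.98 at 10 nM, 8.54, 8.32 and 8.40 in the 24 h vehicle and 11.55, 11.61 and 11.55 in the 48 h vehicle. The 10 nM arrays were above the first vehicle and below the second (2.57 ± 0.05 and -0.58 ± 0.05). CXCL8 rose by 1.94 ± 0.06 and stood at 0.12 ± 0.06 against the 48 h vehicle (limma adjusted p = 0.21). CXCL5 (1.73 and -0.14) and IL1A (0.57 and -0.22) also passed against the 24 h vehicle alone, and IL11, a cytokine of the IL-6 family, was called in opposite directions (-0.76 and 0.63).

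The NF-kB motif, GGGA and TTTCC with any 1 base between them, on either strand, was found in 8 of 19 available promoter windows of this list (42.1%), and in 149 of all 27305 (0.546%). Of the 13 remaining members with a window, 5 held it. The windows of the feedback inhibitors are shown because both genes rose against both vehicles: TNFAIP3 at chr6:137867009-137867258 (plus strand) and NFKBIA at chr14:35404750-35404999 (minus strand), with the match in capitals.
TNFAIP3: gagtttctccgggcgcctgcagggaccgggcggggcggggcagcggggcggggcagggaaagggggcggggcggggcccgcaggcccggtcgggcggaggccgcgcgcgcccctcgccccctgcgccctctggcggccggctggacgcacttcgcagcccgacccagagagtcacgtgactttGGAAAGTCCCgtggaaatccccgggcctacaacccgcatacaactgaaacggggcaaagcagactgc
NFKBIA: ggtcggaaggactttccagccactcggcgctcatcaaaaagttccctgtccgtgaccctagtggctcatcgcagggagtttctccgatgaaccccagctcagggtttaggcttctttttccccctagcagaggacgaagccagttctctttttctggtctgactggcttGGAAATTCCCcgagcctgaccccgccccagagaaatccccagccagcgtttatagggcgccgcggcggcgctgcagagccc
Each of the windows held 1 match, on the strand opposite to the motif as written above.

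Of 23 p53 targets, 19 were higher and 1 lower than the 24 h vehicle (22.8% and 21.8% of all genes), with a median of 0.54. In the list, 16 remained, all higher (9.97% of all genes), 10 of them in every scaling. GDF15, a stress cytokine, read 9.59, 9.61 and 9.60 at 10 nM, 8.05, 8.04 and 7.95 in the 24 h vehicle and 8.24, 8.28 and 8.16 in the 48 h vehicle (1.58 ± 0.05 and 1.37 ± 0.05 on the log2 scale). MDM2, the ubiquitin ligase of p53, rose by 1.17 ± 0.06 and 0.83 ± 0.06, and the cell cycle inhibitor CDKN1A by 0.85 ± 0.07 and 0.77 ± 0.07. CDKN1A read 10.08, 10.07 and 10.19 at 10 nM and at most 9.39 on any vehicle array. The death receptor gene FAS rose by 0.81 and 1.47 and the repair gene DDB2 by 0.38 and 0.24. Of the other 2 probe sets of GDF15, 1 was called higher against the 24 h vehicle, and the one read without _x_at and _s_at probe sets stood at -0.093 against the 48 h vehicle. TP53INP1 (0.39 and -0.14, with another probe set at -0.44 against the 24 h vehicle), PLK3 (0.62 and -0.16) and TP53I3 (0.34 and 0.04) did not remain. At 40 nM the list had medians of 0.54 at 24 h and 0.56 at 48 h.

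Among 18 apoptosis regulators, 11 were higher and 6 lower than the 24 h vehicle (median 0.26), beside 22.8% and 21.8% of all genes. In limma, 10 remained higher and none lower (1 lower at an unadjusted p below 0.05), beside 9.97% and 7.5% of all genes. The anti-apoptotic BCL2A1, itself an NF-kB target, read 8.22, 8.28 and 8.19 at 10 nM, 6.32, 5.86 and 6.24 in the 24 h vehicle and 6.67, 6.95 and 6.43 in the 48 h vehicle (2.09 ± 0.14 and 1.55 ± 0.14). The pro-apoptotic BAX (0.77 and 0.87), BID (0.65 and 0.72) and BCL2L11 (0.58 and 1.203) also remained higher, as did the inhibitors XIAP (0.32 and 0.17) and BCL2L1 (0.35 and 0.31). BCL2 (-0.52 and -0.08) and CASP9 (-0.31 and -0.10) were lower than the 24 h vehicle alone. PMAIP1 and MCL1 were called in opposite directions, at -0.20 and 0.69 and at -0.13 and 0.25, but the other probe set of PMAIP1 was higher than both vehicles (0.28 and 0.90). Among other probe sets, 1 of XIAP (-1.16) and 2 of BCL2L1 (the lower at -1.18) were lower than the 24 h vehicle, against the direction given. In the deposited scaling, 13 members were higher and none was called lower (median 0.62), beside 13374 and 771 of all 19775 genes.

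Of 13 histone genes, 11 were higher than the 24 h vehicle and none lower (limma, and none at an unadjusted p below 0.05), with a median of 0.83. Over all genes, 22.8% were higher and 21.8% lower. In the list, 8 remained, all higher (9.97% of all genes) and in every scaling. H2BC12 read 10.98, 10.99 and 11.01 at 10 nM, 9.57, 9.54 and 9.49 in the 24 h vehicle and 9.87, 9.77 and 9.72 in the 48 h vehicle (1.46 ± 0.05 and 1.204 ± 0.05). H2AC6 rose by 1.33 and 1.04 and the linker histone H1-2 by 1.13 and 1.18. The histone genes of a cluster are near-identical in sequence, so which copy carried the signal is uncertain. The variants H2AX (0.34 and 0.13, with other probe sets at -0.62 and -0.55 against the 24 h vehicle) and H3-3A (0.44 and -0.07) did not remain, and H2AZ1 stood at 0.07 and 0.01. At 40 nM, H2BC12 stood 0.88 above vehicle at 24 h and 1.34 at 48 h.

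Of 21 heat shock genes, 3 were higher and 8 lower at 10 nM than in the 24 h vehicle, with a median of -0.025. Over all genes, 22.8% were higher and 21.8% lower. In the list, 2 remained higher and 4 lower (9.97% and 7.5% of all genes), and 1 and 2 of these did so in every scaling. The direction depended on the scaling. As deposited, 13 were higher and 3 lower (median 0.247), beside 13374 and 771 of all 19775 genes. With array medians subtracted, 2 were higher and 10 lower (median -0.248), beside 2472 and 6260 of all genes. At 40 nM for 24 h, against the same vehicle, 15 of the 21 were higher and 1 lower (16.9% and 18.8% of all genes), with a median of 0.49. HSP90AB1, the constitutive cytosolic HSP90, read 12.14, 12.17 and 12.18 at 10 nM, 13.12, 13.08 and 13.10 in the 24 h vehicle and 12.52, 12.54 and 12.56 in the 48 h vehicle. It fell 1.91-fold and 1.30-fold with no overlap (-0.93 ± 0.04 and -0.38 ± 0.04), and of its 2 other probe sets, 1 was lower against both vehicles (-1.39 and -0.70), while the other was lower than the 24 h vehicle (-0.67) but higher than the 48 h vehicle (1.07). The fall against the 48 h vehicle thus depended on the probe set. At 40 nM for 24 h it was 0.45 above vehicle.

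The inducible HSP90AA1 stood at -0.10 ± 0.04 (limma adjusted p = 0.046) and -0.02 ± 0.04 (0.78, limma), and with values as deposited at 0.16 against the 24 h vehicle. Its 3 other probe sets stood from -1.24 to -0.061 against the 24 h vehicle, and the one at -1.24 was also lower than the 48 h vehicle (-0.58). HSP90B1 of the endoplasmic reticulum was called in opposite directions (-0.49 ± 0.09 and 0.45 ± 0.09), and the mitochondrial TRAP1 stood at -0.35 ± 0.06 and -0.14 ± 0.06. HSPB1, a small heat shock protein that binds unfolded proteins, read 11.51, 11.49 and 11.38 at 10 nM, 11.03, 11.01 and 10.996 in the 24 h vehicle and 12.36, 12.33 and 12.31 in the 48 h vehicle. The 10 nM arrays lay between the vehicles, and the gene was called higher than one (0.45 ± 0.05) and lower than the other (-0.87 ± 0.05). HSPB8 remained higher (0.39 ± 0.07 and 1.03 ± 0.07), with its other probe set at -0.26 against the 24 h vehicle, and HSPA4L did too (0.24 and 0.68). DNAJB6 (-0.82 ± 0.06 and -1.47 ± 0.06), DNAJB4 (-0.64 and -0.21) and DNAJB1 (-0.33 ± 0.05 and -0.20 ± 0.05), which deliver substrates to HSP70, remained lower. DNAJB1 did not remain in every scaling. HSF1 was not called against the 24 h vehicle (0.14 ± 0.07, limma adjusted p = 0.12). The heat shock element, GAA, TTC and GAA with any 2 bases between neighbours, on either strand, was found in 2 of 19 available promoter windows of the list (10.5%) and in 120 of 27305 (0.439%).

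Of 18 HSP90 co-chaperones, 6 were higher and 10 lower than the 24 h vehicle (median -0.20), beside 22.8% and 21.8% of all genes. In the list, 1 remained higher and 6 lower (9.97% and 7.5% of all genes), and 4 of these falls did so in every scaling. As deposited, 9 were higher and 5 lower (median 0.104), beside 13374 and 771 of all 19775 genes. With array medians subtracted none was higher and 11 were lower, beside 2472 and 6260 of all genes. STIP1, which hands clients from HSP70 to HSP90, read 10.25, 10.28 and 10.17 at 10 nM, 11.39, 11.29 and 11.24 in the 24 h vehicle and 10.67, 10.62 and 10.64 in the 48 h vehicle (-1.07 ± 0.05 and -0.41 ± 0.05). The kinase adaptor CDC37 (-0.43 and -0.37), PTGES3, which encodes p23 (-0.33 and -0.30), and PPID (-0.68 and -0.34) were also lower against both, although another PPID probe set was higher (0.62 and 0.75). PPP5C stood at -1.41 ± 0.12 and -0.79 ± 0.12, with another probe set at 0.15 against the 24 h vehicle. UNC45A was higher (0.32 and 0.30), but did not remain in every scaling. The transcripts of 27 HSP90 clients had 8 members higher and 7 lower than the 24 h vehicle (median -0.023), beside 22.8% and 21.8% of all genes. In the list, 4 remained higher and 3 lower (9.97% and 7.5% of all genes). Of these, 2 rises and no fall remained in every scaling. EGFR rose by 1.05 ± 0.06 and 0.23 ± 0.06 and AXL changed by -0.71 ± 0.04 and -0.17 ± 0.04, whereas AHR was called in opposite directions (0.93 and -0.85). Neither EGFR nor AXL remained in every scaling. Of 8 other EGFR probe sets, 3 were called higher than the 24 h vehicle and none lower.

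Of 24 genes of the unfolded protein response, 1 was higher and 14 lower than the 24 h vehicle, with a median of -0.31. Over all genes, 22.8% were higher and 21.8% lower. In the list, 9 remained lower (7.5% of all genes), 6 of them in every scaling. HERPUD1, of endoplasmic reticulum associated degradation, read 10.13, 10.13 and 10.21 at 10 nM, 11.05, 11.01 and 11.10 in the 24 h vehicle and 10.53, 10.57 and 10.63 in the 48 h vehicle (-0.90 ± 0.05 and -0.42 ± 0.05). The chaperone HSPA5 changed by -0.50 ± 0.04 and -0.24 ± 0.04, while its other probe set stood at 0.12 and was higher than the 48 h vehicle (0.20). The oxidoreductase PDIA4 changed by -0.69 and -0.76 and PDIA6 by -0.47 and -0.27. PDIA3 stood at -0.80 ± 0.04 and -0.42 ± 0.04, but its other probe sets were not called against the 24 h vehicle (-0.10 and 0.13) and were higher than the 48 h vehicle (0.25 and 0.30). ERO1B remained higher (0.61 and 1.04), although its other probe set was lower than the 24 h vehicle (-0.34). The vehicles differed at this list as well, with 14 members lower at 48 h (22.2% of all genes). As deposited, the median against the 24 h vehicle was 0.036.

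Among 29 genes of the amino acid response, 3 were higher and 14 lower than the 24 h vehicle (median -0.13), beside 22.8% and 21.8% of all genes. In the list, 2 remained higher and 10 lower (9.97% and 7.5% of all genes), and 2 and 5 of these did so in every scaling. As deposited, 15 were higher and 6 lower (median 0.137), beside 13374 and 771 of all 19775 genes. With array medians subtracted, 3 were higher and 21 lower (median -0.358), beside 2472 and 6260 of all genes. SLC3A2, the heavy chain of amino acid exchangers, read 10.41, 10.40 and 10.48 at 10 nM, 11.51, 11.59 and 11.62 in the 24 h vehicle and 11.43, 11.61 and 11.65 in the 48 h vehicle, a fall of -1.15 ± 0.06 and -1.14 ± 0.06 without overlap. Asparagine synthetase ASNS (-0.44 and -0.63), PHGDH of serine synthesis (-0.56 and -0.52) and the exchanger subunit SLC7A5 (-0.39 and -0.85) were lower as well. ATF5 (0.76 and 0.79) and ATF3 (0.81 and 1.09) remained higher, but both depended on the probe set. Of 3 other ATF5 probe sets, 1 rose too (1.10 and 1.02), and the others were lower than the 24 h vehicle (-0.50 and -0.43). Another probe set of ATF3 read -0.20 against each vehicle. Of the list, 24 members were lower than vehicle in 40 nM at 24 h (18.8% of all genes), with a median of -0.71.

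Of 27 mesenchymal and TGF-beta genes, 3 were higher and 14 lower than the 24 h vehicle (median -0.34), beside 22.8% and 21.8% of all genes. None remained higher (limma, and none at an unadjusted p below 0.05) and 9 remained lower (9.97% and 7.5% of all genes). Another 5 were called in opposite directions (3.52% of all genes). SNAI2, a repressor of epithelial genes, read 7.26, 7.33 and 7.40 at 10 nM, 9.18, 9.18 and 9.18 in the 24 h vehicle and 8.54, 8.52 and 8.43 in the 48 h vehicle (-1.85 ± 0.05 and -1.17 ± 0.05). CCN2, a matricellular target of TGF-beta and YAP, changed by -2.11 ± 0.07 and -1.15 ± 0.07, THBS1 by -1.33 and -1.53, the protease MMP2 by -1.21 and -1.39 and vimentin, VIM, by -0.33 and -0.39. The other 2 probe sets of MMP2, both dim, were higher than the 24 h vehicle (0.27 and 0.53), and 1 of 6 others of FN1 was lower (-0.31). The matrix genes SPARC (-0.50 and 4.02) and FN1 (0.28 and -1.28) and the repressor ZEB2 (0.42 and -1.69) were among those whose direction depended on the vehicle. As deposited, 10 members were higher and 10 lower (median 0.085), beside 13374 and 771 of all 19775 genes. In that scaling 8 remained lower, beside 438 of all genes, and 7 remained lower in every scaling.

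Of 24 epithelial junction and keratin genes, 13 were higher and 3 lower than the 24 h vehicle (median 0.33), beside 22.8% and 21.8% of all genes. In the list, 7 remained higher and 1 lower (9.97% and 7.5% of all genes). Besides CDH1, the tight junction gene CLDN2 rose by 1.85 ± 0.08 and 1.71 ± 0.08, plakoglobin JUP by 1.21 and 0.25, CLDN1 by 0.54 and 0.61 and KRT18 by 0.46 and 0.43. Desmoplakin DSP rose by 0.38 and 1.94. KRT7 remained lower (-0.44 ± 0.05 and -0.48 ± 0.05). KRT19 and OCLN were called in opposite directions, at 0.56 and -2.48 and at 0.30 and -0.47, and ELF3 (1.18 and 0.09) and EPCAM (0.66 and -0.11) were higher than the 24 h vehicle alone. Of the 8 lung epithelial markers, 7 were higher than the 24 h vehicle and 3 of these remained.

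NRF2 targets serve redox defence. Of 27 members, 19 were higher than the 24 h vehicle and 2 lower (22.8% and 21.8% of all genes), with a median of 0.23. However, 20 were also higher in the 48 h vehicle than in the 24 h vehicle (20.6% of all genes), with a median of 0.27. At 10 nM, 5 remained higher and 1 lower (9.97% and 7.5% of all genes). The efflux pump ABCC3 read 11.55, 11.56 and 11.63 at 10 nM, 10.55, 10.50 and 10.55 in the 24 h vehicle and 11.62, 11.64 and 11.65 in the 48 h vehicle, so that the 10 nM arrays were above the first and at the level of the second (1.04 ± 0.05 and -0.06 ± 0.05). Of 4 other ABCC3 probe sets, 3 were higher than the 24 h vehicle and 1 lower (-0.25). The same 3 were called lower than the 48 h vehicle (-0.26, -0.32 and -0.24), so the level beside that vehicle depended on the probe set. Heme oxygenase HMOX1 remained higher (0.37 ± 0.04 and 0.21 ± 0.04) and PGD of the pentose phosphate pathway lower (-0.49 ± 0.05 and -0.79 ± 0.05). PGD remained in every scaling and HMOX1 did not. At 40 nM for 24 h the list had a median of 0.69, with 24 members higher (16.9% of all genes).

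Of 21 actin and SRF target genes, 5 were higher and 12 lower than the 24 h vehicle (median -0.13), beside 22.8% and 21.8% of all genes. In the list, 2 remained higher and 8 lower (9.97% and 7.5% of all genes). Besides TAGLN and ACTB, the tropomyosin TPM4 (-0.58 and -0.63) and ZYX of focal adhesions (-0.28 and -0.94) remained lower, while ACTA2 stood higher (1.49 ± 0.08 and 1.09 ± 0.08). The other 2 probe sets of ACTA2, both dim, were not called against either vehicle. ERK output had 5 members higher and 11 lower of 25 (median -0.15), with 4 remaining each way, and glucocorticoid receptor targets 4 and 5 of 16 (median -0.064), with 2 and 3 remaining. The ion channel subunit SCNN1A of the latter remained higher (1.56 ± 0.09 and 1.02 ± 0.09). Its other 2 probe sets were not called against either vehicle, and stood at -0.10 and 0.07 against the 24 h vehicle. The kinase SGK1 was lower than the 24 h vehicle alone (-1.30 ± 0.05 and -0.05 ± 0.05).

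Of 29 genes of G1/S and DNA replication, 10 were higher and 11 lower than the 24 h vehicle (median -0.027), and 7 and 3 remained. Of 30 genes of G2/M and mitosis, 9 were higher and 5 lower (median 0.024). Of these, 7 and none remained (limma, with 1 lower at an unadjusted p below 0.05). Over all genes, 22.8% were higher and 21.8% lower, and 9.97% and 7.5% remained. At 40 nM for 24 h, all 30 mitotic genes were lower than the same vehicle (18.8% of all genes), with a median of -0.96. The ubiquitin-conjugating enzyme UBE2C rose by 0.41 ± 0.05 and 0.67 ± 0.05 at 10 nM and the clamp PCNA by 0.38 ± 0.04 and 0.20 ± 0.04. Proteasome subunits had 12 members higher and 4 lower of 27 (median 0.082), with 8 and 2 remaining, of which PSMD14 rose by 0.38 ± 0.04 and 0.29 ± 0.04. These lists depended on the scaling. With array medians subtracted, 1 mitotic gene was higher and 10 lower (median -0.162), and as deposited 24 and 1. In the proteasome list 10 genes were lower (median -0.151) with array medians subtracted and 23 higher as deposited, and in the G1/S list 16 were lower and 19 higher. Of all 19775 genes, 2472 were higher and 6260 lower with array medians subtracted, and 13374 and 771 as deposited. Of the remaining rises, only the mitotic gene UBE2C remained in every scaling among the 7 mitotic, 7 G1/S and 8 proteasome genes.

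Glycolysis and hypoxia genes had 5 higher and 11 lower of 28 (median -0.080), with 5 and 8 remaining. For this and the next lists, the shares over all genes were 22.8% and 21.8%, with 9.97% and 7.5% remaining. The peptide hormone ADM rose by 1.05 ± 0.06 and 1.51 ± 0.06 and the glycolytic enzyme ENO1 changed by -0.59 ± 0.04 and -0.57 ± 0.04. Autophagy and lysosome genes had 6 higher and 9 lower of 23 (median -0.0058), with 4 and 7 remaining, and cholesterol synthesis 3 and 6 of 18 (median -0.045), with 2 and 4 remaining. The sterol sensor partner INSIG1 changed by -0.65 ± 0.06 and -1.25 ± 0.06. Oxidative phosphorylation had 7 higher and 8 lower of 23 (median 0.070), with 3 and 2 remaining, and cytosolic ribosomal proteins 3 and 1 of 21, with 3 and none remaining (limma, none lower at an unadjusted p below 0.05 either). With values as deposited, the medians of all 24 lists lay above 0, from 0.036 to 1.71, beside the shift of 0.37 in the median gene. With array medians subtracted, the medians of oxidative phosphorylation (-0.143) and cytosolic ribosomal proteins (-0.272) were below 0, and no remaining member of either list remained in every scaling.

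**Figure D5:**
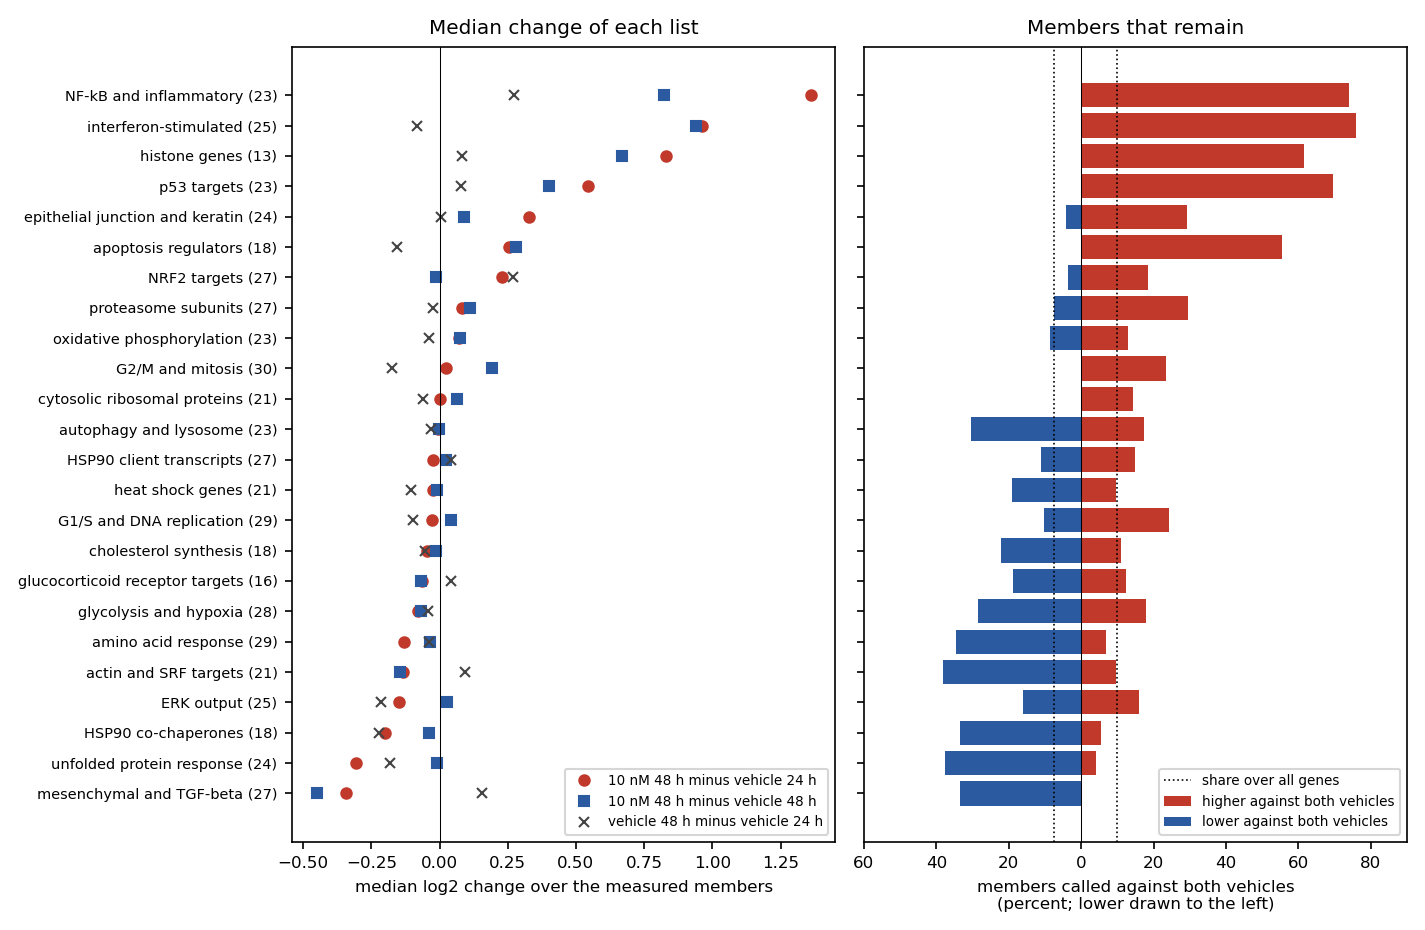
Left, the median log2 change over the measured members of 24 gene lists (number in brackets) for 10 nM against each vehicle and for the vehicles against each other; right, the percent of members called in the same direction against both vehicles, with lower drawn to the left and dotted lines at the shares of all genes (9.97% and 7.5%). The interferon-stimulated, NF-kB, p53 and histone lists extend farthest to the right.

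Genes that were called against the 24 h vehicle and did not remain were largest for CXCL1, MTUS1, APOH, ANXA13, FTX and CXCL8 among the rises. MTUS1, which encodes a microtubule-associated protein, read 9.09, 9.08 and 9.11 at 10 nM, 6.66, 6.59 and 6.71 in the 24 h vehicle and 9.22, 9.16 and 9.28 in the 48 h vehicle. Its 10 nM arrays sat with the 48 h vehicle (2.44 ± 0.05 and -0.13 ± 0.05, the latter with limma adjusted p = 0.097). ANXA13, an annexin of epithelial membranes, stood at 2.29 ± 0.13 and 0.05 ± 0.13, the plasma glycoprotein APOH at 2.30 ± 0.11 and -0.16 ± 0.11 and the non-coding FTX at 2.05 ± 0.12 and -0.48 ± 0.12.

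Among the falls, FPR2, a formyl peptide receptor, read 7.77, 7.77 and 7.85 at 10 nM, 9.60, 9.67 and 9.73 in the 24 h vehicle and 4.54, 4.03 and 4.11 in the 48 h vehicle. It lay between the vehicles with no overlap (-1.87 ± 0.10 and 3.57 ± 0.10). CYRIA, a RAC1-binding regulator of actin (-1.63 ± 0.10 and 0.63 ± 0.10), and the class II gene HLA-DPB1 (-1.58 ± 0.13 and 1.02 ± 0.13) were also between them. GRID1 (-1.53 ± 0.19 and 0.08 ± 0.19), LIMD2 (-1.52 ± 0.11 and -0.25 ± 0.11) and COX4I2 (-1.50 ± 0.14 and -0.09 ± 0.14) were not called against the 48 h vehicle.

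Against 40 nM at 48 h, 1010 of the 1972 remaining rises were higher still at 10 nM, 217 were lower and 745 were not called, where 17.1% and 13.9% of all genes were called higher and lower. Of the 1483 remaining falls, 794 were lower still at 10 nM, 109 were higher and 580 were not called. The rises include 731 genes, and the falls 559, that 40 nM also changed in that direction against its own vehicle at both times. For 374 rises and 291 falls, neither 40 nM comparison was called. Over all genes, 40 nM was called higher at 16.9% and lower at 18.8% after 24 h, and at 12.2% and 14.1% after 48 h. The shares of all genes called at both times or at neither were not counted, so these overlaps have no background beside them. These comparisons share the vehicle or the 10 nM arrays with those that chose the genes.

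The probe sets of a gene disagreed more often when 10 nM was set against the 24 h vehicle than within a time. Of 10523 genes with several probe sets, 1790 (17%) had probe sets called in opposite directions against the 24 h vehicle and 413 (3.92%) against the 48 h vehicle. Between the vehicles the number was 1481 (14.1%), and for 40 nM against its own vehicle 310 (2.95%) at 24 h and 152 (1.44%) at 48 h. Of the remaining genes, 937 rises and 381 falls remained in all 4 scalings, and 575 and 195 also when a gene was read as the mean of its probe sets or without _x_at and _s_at probe sets. The last rule could read 2876 of the 3455 remaining genes, and the others were counted as not remaining. The 12 leading rises and 12 leading falls described above all remained in the 4 scalings, and LTB, KLF2 and TAGLN did not under both rules for probe sets. CDH1 and EFEMP1 have only _s_at probe sets, so the rule without these could not read them.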

How the data were processed

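The log2 values were deposited by the authors as a table of 54675 probe sets on 15 arrays, and the submitters' processing notes name RMA and Affymetrix Expression Console, whose version is not given in sources used here. RMA corrects background, equalises distributions and summarises the probes of a set. Deposited array means were 5.132 to 5.139 for the 24 h arrays and 5.516 to 5.523 for the 48 h arrays, so the times appear to have been normalized apart. All arrays were therefore quantile normalized together. On arrays, the number of arrays limits the precision.

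Of the probe sets, 62 are controls, 41091 have 1 symbol, 1801 several and 11721 none here; the gene ID served to update 41037 symbols. The brightest single-symbol probe set stood for each of 19775 genes. A model of group means over all 15 arrays was fitted in limma 3.58.1 under R 4.3.3 (10 residual degrees of freedom), with two-sided p-values adjusted by Benjamini-Hochberg over all genes. The fit was tested on simulated data. The members and the 29 gene lists were chosen with earlier results of these data known. Text names the 12 leading remaining rises and falls by the smaller change, among genes whose 10 nM arrays overlapped no vehicle array. It also names the 6 largest each way that did not remain. In both choices, names whose form marks a locus or a non-coding transcript were passed over (130 remaining rises and 31 remaining falls). Further named are the 2 largest each way of each list and a set of chaperone and control genes. In lists, other members were chosen after their values were seen. Alternatives were other scalings, probe set rules, filters, fits and arrays left out.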

Additional observations from a re-analysis of the deposited data

How the results depend on the processing

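Counts against the 24 h vehicle depended on the scaling. With values as deposited, 14145 genes were called, 13374 higher and 771 lower, and 438 falls remained. With array medians subtracted, 2472 rises were called and 2124 changes remained, 961 of them higher. Without _x_at and _s_at probe sets, 948 falls remained, but only 2876 of the 3455 remaining genes could be read there. A 2-fold minimum left 444 genes (307 higher, 137 lower), of which 135 (99 higher, 36 lower) met it against both vehicles. All other counts stayed within 1.5 times. Leaving out 1 array gave 7730 to 8704 calls (4004 to 4459 higher, 3725 to 4314 lower), with 2973 to 3368 remaining (1659 to 1925 higher, 1310 to 1443 lower). With a replicate block, 8583 genes were called and 3305 remained; the deviations of same-numbered arrays correlated at 0.204, -0.11 and 0.36 with the 24 h vehicle, so the numbers were not taken as pairs.

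Some named genes changed sign against the 24 h vehicle, and the cause was not tested. With values as deposited these were ABCC2 (0.17), BIRC5 (0.049), BMF (0.036), CLDN4 (0.090), HSP90AA1 (0.16), PMAIP1 (0.12) and RPL22 (0.069), and with array medians subtracted HSF1 (-0.00097) and RPL11 (-0.11). Without _x_at and _s_at probe sets they were APOH (-0.080), ATF3 (-0.20), ATG7 (0.021), HLA-DPB1 (0.086), HSPB8 (-0.26), PPP5C (0.15), RPL22 (0.0074) and TAGLN (0.42), and against the 48 h vehicle ATF3 (-0.20), ATG7 (0.12), ATP5F1A (0.11), GDF15 (-0.093), KLF2 (0.030) and RPS9 (-0.00063). Averaged over all probe sets of the gene, PMAIP1 stood at 0.039 against the 24 h vehicle and PDIA3 at 0.043 against the 48 h vehicle. The alternatives for the genes that separate the times were chosen after seeing the data.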

Other observations

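Further genes that separate the other 48 h arrays from the 24 h arrays, chosen after their values were seen, gave means at 10 nM close to those at 24 h. They do not stand for all 237 such genes, of which 87 had every 10 nM array on the 48 h side. EDIL3, a matrix protein, stood at 10.32 at 10 nM, 10.36 in the 24 h vehicle, 5.63 in the 48 h vehicle and 4.98 in 40 nM at 48 h. In the same order, the tetraspanin TSPAN7 stood at 5.32, 5.32, 9.04 and 9.30, the chemokine receptor ACKR3 at 5.32, 5.50, 8.47 and 8.68, the embryonic globin HBE1 at 8.65, 7.99, 4.89 and 5.54 and the laminin chain LAMB3 at 8.10, 8.22, 5.54 and 6.88. The neuropeptide NTS stood at 3.26, 3.14, 5.82 and 6.34. Over the 152 genes that were higher at 48 h, the median position of the 10 nM mean was 30.0% of the way from the 24 h mean to the mean of the other 48 h arrays, and over the 85 lower ones 37.9%.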
